A study of Homo sapiens with 12 samples.

Results

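The genes described here were rows of the count table with almost no RNA in solvent-treated cells and clear RNA after paclitaxel. A row was taken when its counts summed to at most 6 over the 6 DMSO libraries and to at least 100 over the 6 paclitaxel libraries, and 136 of the 25049 rows met both limits. The genes were chosen by these counts, which are the same that would test paclitaxel against DMSO, so that contrast is given here as a description only. The contrast between the genotypes under paclitaxel was not itself a criterion and was tested. The paclitaxel limit was summed over both genotypes, however, so a gene could pass it through the genotype where it was high.

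Polyadenylated RNA was counted per gene in 12 libraries of MDA-MB-231b cells, a bone-tropic derivative of the established human triple-negative breast cancer line MDA-MB-231 recovered from the marrow of nude mice. The groups were GLI2 KO cells with 50 nM paclitaxel (PTX) for 2 days, WT cells with the same paclitaxel, GLI2 KO cells with DMSO for 2 days and WT cells with DMSO for 2 days, with 3 libraries each. GLI2 KO cells had received an sgRNA to GLI2 and CRISPR-Cas9 by lentivirus, and WT cells had received a non-targeted sgRNA, so all 4 groups had passed through the same kind of transduction. The labels do not say whether the KO cells were 1 clone or a pool. Nor do they state that the 3 libraries of a group were grown apart, so each p-value reflects the spread between these libraries alone, and that spread may be technical.

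Paclitaxel binds and stabilises microtubules, which blocks the separation of chromosomes in mitosis. Cells export the drug with ABCB1, the efflux pump also known as P-glycoprotein or MDR1, and the liver oxidises it with CYP2C and CYP3A enzymes. GLI2 is a zinc finger transcription factor at the end of the Hedgehog pathway, and in breast cancer cells in bone it is known for raising the transcript of PTHLH, a hormone that drives bone resorption.

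Library totals ran between 83230948 and 109018776 counts, and between 23712 and 24985 rows had at least 1 count in a library. Counts scaled to library size with TMM factors are given as CPM, a level relative to the library total. A level of 3 counts equalled 0.0275 to 0.0360 CPM, and such limits cover counting error only. The targeted transcript was measured in every library: GLI2 stood at 3.97, 4.14 and 4.38 CPM in KO cells with paclitaxel, against 6.42, 5.64 and 4.97 CPM in WT cells with paclitaxel, and at 9.28, 8.23 and 10.1 CPM in KO cells with DMSO, against 10.4, 11.4 and 10.6 CPM in WT cells with DMSO. The KO libraries were below the WT libraries under both treatments, and the log2 fold change of KO over WT under paclitaxel was -0.44 ± 0.09 (SE, n = 3 each, edgeR adjusted p = 0.000222). RNA of the gene therefore remained in the KO cells, and these counts cannot show whether the protein was lost.

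All 136 genes had at least 1 count in each of the 6 paclitaxel libraries, whereas 51 to 59 of them had a count in a given KO library with DMSO and 37 to 53 in a given WT library with DMSO. Over all 136 genes the counts summed to 15057 in the 3 KO libraries with paclitaxel, 10026 in the 3 WT libraries with paclitaxel, 259 in the 3 KO libraries with DMSO and 204 in the 3 WT libraries with DMSO. The genes were thus silent in DMSO only to within a few counts. The DMSO sum of a gene had a median of 3 counts, 10 genes had 0 counts in all 6 DMSO libraries and 25 stood at the limit of 6. The paclitaxel sums ran between 101 and 738 counts with a median of 151, so single genes rest on few counts. In bulk RNA, fewer cells that make a transcript and less transcript per cell cannot be told apart.

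Their summed level was 46.1, 50.5 and 56.3 CPM in the 3 KO libraries with paclitaxel, against 36.5, 36.3 and 34.8 CPM in the 3 WT libraries with paclitaxel. It was 1.12, 0.896 and 1.03 CPM in KO libraries with DMSO, against 0.840, 0.635 and 0.734 CPM in WT libraries with DMSO. Every KO library was above every WT library within each treatment. The means under paclitaxel were 50.9 ± 5.12 CPM in KO cells and 35.8 ± 0.917 CPM in WT cells (SD, n = 3 each). The third KO library with paclitaxel was the highest of its group for 73 of the 136 genes, against 29 and 34 genes for the other two. This library carried the largest share of the KO sum, and the part it played in the genotype calls is given with the alternatives.

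**Figure D1:**
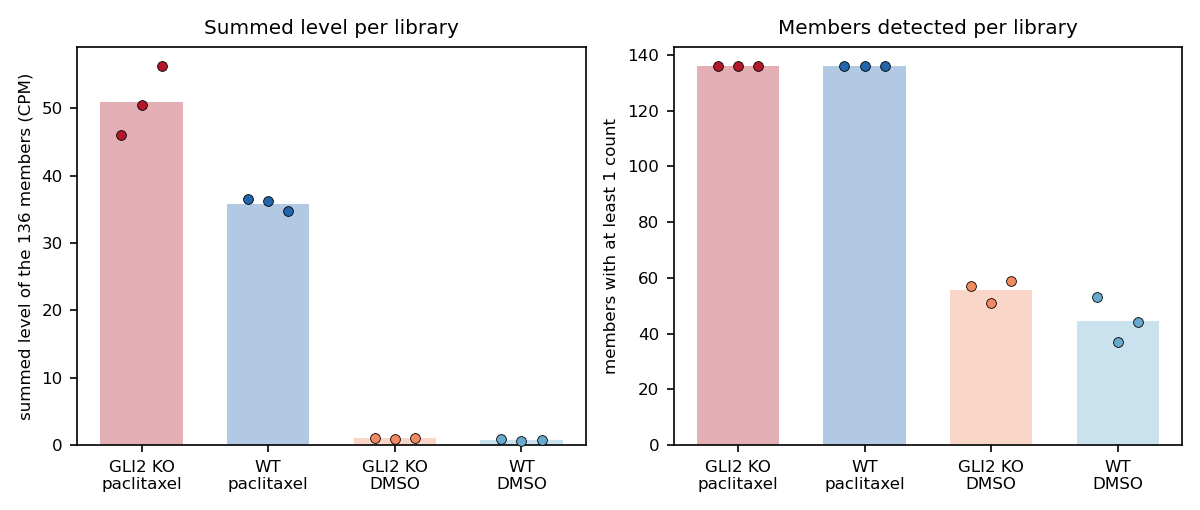
Summed level of the 136 genes in CPM (left) and number of them with at least 1 count (right) in each library, with points for libraries and bars for the mean of 3, in GLI2 KO and WT cells with paclitaxel and with DMSO. The 3 KO libraries with paclitaxel lie between 46.1 and 56.3 CPM and the 3 WT libraries with paclitaxel between 34.8 and 36.5 CPM, while all DMSO libraries lie at or below 1.12 CPM.

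The genes were a small part of the rows that were nearly absent in DMSO. At most 6 DMSO counts were found in 934 rows, of which 14.6% reached the paclitaxel limit, and the median paclitaxel sum of the 934 rows was 48 counts. The reverse choice, at most 6 counts with paclitaxel and at least 100 with DMSO, found 0 rows, and only 3 rows had at most 6 paclitaxel counts at all. Among rows with 20 to 60 DMSO counts, 74.4% had a higher mean level with paclitaxel than with DMSO, and among rows with over 6000 DMSO counts 24.8% did. These rows were grouped by the same DMSO counts that enter the comparison, so part of this pattern can follow from the grouping. The table also holds no row with a total below 20 counts, so rows with at most 6 DMSO counts had to hold counts with paclitaxel.

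The limits cut through a continuous range of values. Just inside the paclitaxel limit stood PRLH and TMEM255A with 101 counts each and TAC3 with 102, and just outside it CACNA1B, FRG2B and TBX4 with 98 counts each. At the DMSO limit of 6 counts the best covered genes were ABCB1, LINC01447 and NSG2, with 582, 440 and 242 paclitaxel counts. One DMSO count beyond it stood RFLNB and RYR1, with 292 and 209 paclitaxel counts.

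By annotation, 73 of the 136 genes (53.7%) were protein coding, against 59.2% of all rows. Long noncoding RNAs made up 37 genes (27.2%, against 22.2% of all rows) and pseudogenes 8 (5.88%, against 7.75%). A further 18 genes (13.2%, against 6.58%) had identifiers that are not in GENCODE 29, the annotation used here. In all, 95 genes had a symbol and 41 had an Ensembl identifier only. Their level per kilobase of exon under paclitaxel had a median of 0.110 CPM, against 1.24 CPM for all rows, and reached at most 1.61 CPM. Of the 118 genes with a position, 52.5% overlapped another gene, against 69.9% of all rows with a position, and 4 genes shared over 20% of their exon bases with another gene. Whether counting used strand is not stated in the labels, so reads of a gene and of its antisense partner could not be separated.

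No family supplied most of the genes. Of 52 lists of families, pathways and name classes, 24 held at least 1 of the 136. The long intergenic RNAs named LINC gave 11 of 648 rows, and transcripts named by a sense partner gave 4 of 1537. The ABC transporters gave 3 of 42 rows, the list of drug and steroid metabolising enzymes 3 of 90, immediate early and nuclear receptor genes 3 of 33, the listed G protein-coupled receptors 3 of 115, fibroblast growth factors 2 of 17 and CEACAM genes 2 of 4. Families with no gene among the 136 included the zinc finger genes (0 of 582 rows), interferon-stimulated and innate sensor genes (0 of 105) and axonemal and cilia genes (0 of 102). Others were kinesin, tubulin and microtubule-associated genes (0 of 84), homeobox genes (0 of 80), p53 targets (0 of 34) and Hedgehog components with reported GLI targets (0 of 33). Over all rows, only 136 of 25049 met the rule. At so low a share, a count of 0 in a list of 105 rows or fewer does not show that its genes were underrepresented. Whether any list held more or fewer genes than this share was not tested.

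Many genes of those families changed with paclitaxel without meeting the rule. Among the tested zinc finger genes, 289 of 566 were higher and 112 lower with paclitaxel than with DMSO in KO cells (edgeR adjusted p below 0.05), beside 33% and 32.2% of all genes tested. Among the tested Hedgehog genes, 17 of 33 were higher and 11 lower in KO cells, and 19 were higher and 10 lower in WT cells. In WT cells, 34.6% of all genes tested were higher and 32.1% lower. Of 79 tested kinesin, tubulin and microtubule-associated genes, 20 were higher and 39 lower in KO cells.

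Under paclitaxel, more of the genes were higher in KO than were lower. In edgeR's quasi-likelihood test on the 6 paclitaxel libraries, with Benjamini-Hochberg adjustment over the 21442 genes tested, 46 of the 136 genes (33.8%) were higher in KO than in WT cells, beside a background of 25.2% of all genes tested, and 9 (6.62%) were lower, beside a background of 24%. The other 81 did not pass. Among the 5860 tested rows with paclitaxel sums in the same range, 13.3% were higher and 17.7% lower. The median log2 fold change of KO over WT was 0.44 for the 136 genes and -0.01 for all genes tested. A fold change above 0 was found in 92 of the 136 genes (67.6%), against 49.0% of all genes tested. All 136 genes passed the filter on low counts, because the rule itself asks for counts under paclitaxel.

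The differences were often large. Of the 46 higher genes, 34 were at least 2-fold higher in KO, and of the 9 lower genes 7 were at least 2-fold lower. The log2 fold changes of the higher genes ran between 0.57 and 3.90 and those of the lower genes between -3.11 and -0.76. The median standard error was 0.31 for the 136 genes, against 0.077 for all genes tested, which sets how small a difference could pass. At least 50 paclitaxel counts were reached in both genotypes by 87 genes, in KO cells alone by 36 and in WT cells alone by 13. Genes could thus pass the limit through 1 genotype, as MMP8 did with 146 of its 155 paclitaxel counts in KO cells. The number and size of the differences are therefore not independent of the choice of genes.

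**Figure D2:**
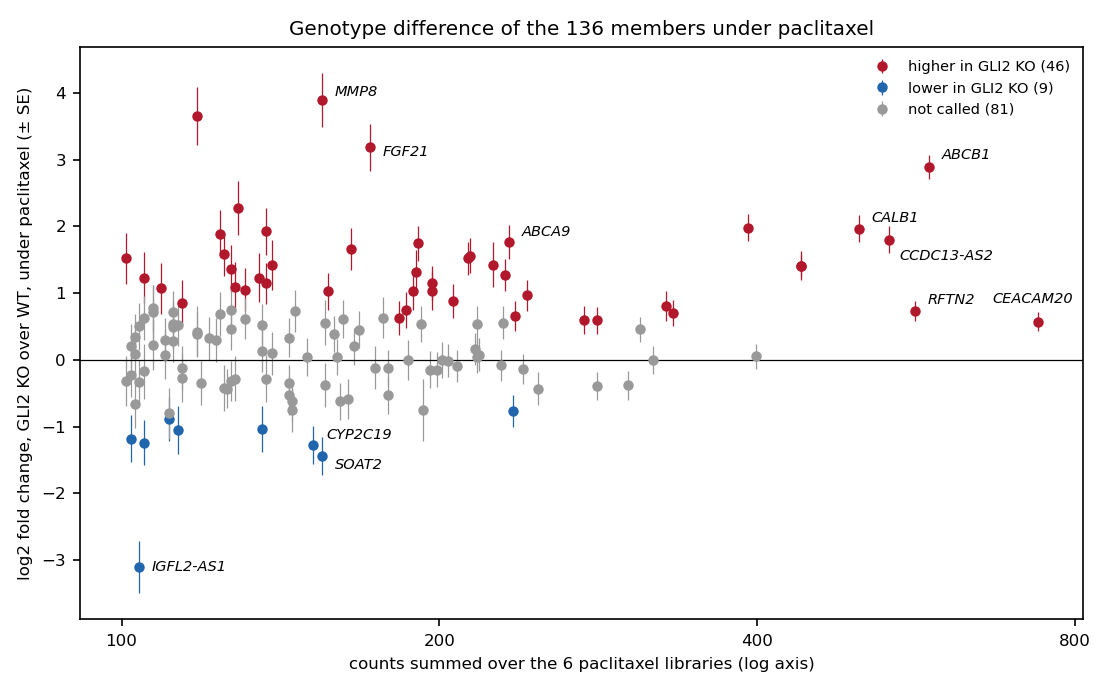
Log2 fold change of GLI2 KO over WT under paclitaxel with its standard error (vertical axis) against the counts summed over the 6 paclitaxel libraries (horizontal log axis), 1 point per gene, with the called genes in colour. The 46 genes higher in KO reach 3.90, and IGFL2-AS1 stands alone at -3.11.

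By class, of the 73 protein-coding genes, 23 were higher and 7 lower in KO, of the 37 long noncoding RNAs 10 were higher and 2 lower, and of the 8 pseudogenes 2 were higher and 0 lower. Over all genes tested, 25.2% were higher and 24% lower. The shares called within each class over all rows were not computed, so the counts by class are a description. Of the 18 genes with identifiers outside GENCODE 29, 11 were higher and 0 were lower. One of them, ENSG00000289337, had 96, 102 and 118 counts in KO cells, against 33, 21 and 22 counts in WT cells under paclitaxel, and 1 count in all 6 DMSO libraries. Its groups did not overlap, with a log2 fold change of 1.98 ± 0.20 (SE).

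ABCB1, the pump that exports taxanes, had the second highest paclitaxel sum of the 136 genes. It had 162, 163 and 191 counts in KO cells with paclitaxel, against 27, 17 and 22 counts in WT cells with paclitaxel, and 0, 1 and 3 counts in KO cells with DMSO, against 0, 1 and 1 counts in WT cells with DMSO. Transcript was thus present in both genotypes under paclitaxel, and every KO library was above every WT library. The log2 fold change of KO over WT was 2.89 ± 0.18 (SE, n = 3 each, edgeR adjusted p = 1.02e-11), which is 7.42-fold. ABCB1 lies on the minus strand at chr7:87503633-87713323 (GRCh38, GENCODE 29) and is annotated as protein coding.

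ABCA9 and ABCA6, lipid transporters of the ABCA subfamily, lie side by side on the minus strand of chromosome 17 with 17.6 kb between them. ABCA9 had 53, 69 and 60 counts in KO cells with paclitaxel, against 20, 14 and 17 counts in WT cells with paclitaxel. ABCA6 had 41, 48 and 60 counts in KO cells with paclitaxel, against 14, 13 and 15 counts in WT cells with paclitaxel. The groups of both genes did not overlap, and their DMSO libraries held at most 2 counts. The log2 fold changes of KO over WT were 1.76 ± 0.25 for ABCA9 (SE, edgeR adjusted p = 4.15e-06) and 1.75 ± 0.26 for ABCA6 (SE, edgeR adjusted p = 7.89e-06). All 3 ABC transporters among the 136 genes were higher in KO.

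The other ABC transporters did not follow as a group. Of 37 others tested, 8 were higher and 14 lower with paclitaxel in KO cells, and 11 were higher and 15 lower in WT cells. The shares over all genes tested were 33% higher and 32.2% lower in KO cells, and 34.6% and 32.1% in WT cells. ABCB5, a relative of ABCB1, had 47 counts in KO cells and 8 in WT cells summed over the paclitaxel libraries, with a log2 fold change of KO over WT of 2.44 ± 0.53 (SE, edgeR adjusted p = 0.000588). ABCG2, another drug efflux pump, stood at 18.7 ± 1.10 CPM in KO cells and 18.3 ± 0.489 CPM in WT cells with paclitaxel (SD, n = 3 each), with a log2 fold change of 0.03 ± 0.05 (SE, edgeR adjusted p = 0.604).

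The RefSeq promoter windows of the 3 transporters are shown because these genes differed together between the genotypes. Each window runs from 250 bases before to 50 bases after the RefSeq start on GRCh38.p14, which need not be the start used in these cells. ABCB1 is at chr7:87713246-87713545, ABCA9 at chr17:69060878-69061177 and ABCA6 at chr17:69141846-69142145, all on the minus strand and written 5′ to 3′ along the gene. Capitals mark matches, on either strand, to 1 of 8 motifs. These were the basal element with the letters TATAAA, the CCAAT motif, the element with the letters GGGCGG that binds Sp1, the motif of AP-1 with the letters TGANTCA, the cyclic AMP response element with the letters TGACGTCA, the C/EBP-ATF element with the letters TTGCATCA, the motif of the GLI factors with the letters GACCACCCA, and the E-box with the letters CACGTG.
ABCB1: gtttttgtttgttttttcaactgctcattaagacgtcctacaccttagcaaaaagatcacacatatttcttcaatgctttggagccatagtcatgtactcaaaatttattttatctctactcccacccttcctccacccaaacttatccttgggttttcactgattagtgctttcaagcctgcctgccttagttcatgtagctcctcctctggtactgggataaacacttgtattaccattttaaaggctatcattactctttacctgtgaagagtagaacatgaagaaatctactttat
ABCA9: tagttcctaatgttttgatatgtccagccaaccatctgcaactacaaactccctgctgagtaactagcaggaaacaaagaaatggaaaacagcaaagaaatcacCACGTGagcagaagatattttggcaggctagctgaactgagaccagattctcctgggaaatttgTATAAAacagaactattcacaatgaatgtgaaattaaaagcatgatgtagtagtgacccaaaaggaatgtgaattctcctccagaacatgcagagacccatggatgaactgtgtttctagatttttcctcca
ABCA6: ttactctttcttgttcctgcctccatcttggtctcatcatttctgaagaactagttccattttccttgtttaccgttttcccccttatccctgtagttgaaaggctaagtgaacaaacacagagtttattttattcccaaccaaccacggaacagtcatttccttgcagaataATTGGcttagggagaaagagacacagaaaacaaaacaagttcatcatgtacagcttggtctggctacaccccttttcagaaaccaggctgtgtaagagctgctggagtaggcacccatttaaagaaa
No match was found in the ABCB1 window, the ABCA9 window held a TATA box and an E-box, and the ABCA6 window held a CCAAT box on the opposite strand. The ABCB1 window lies at the upstream end of the annotated gene, within the span of the gene RUNDC3B. Any other start of ABCB1 was not examined. Among 27305 RefSeq promoter windows, 11.95% hold the TATA box, 35.7% the CCAAT box, 44.6% the GC box, 7.76% the AP-1 site, 1.98% the cAMP response element, 0.923% the C/EBP-ATF element, 0.249% the GLI site and 7.43% the E-box. A match is a run of letters and not a measured site. Only 58 of the 136 genes (42.6%) had an entry in the table of windows, so no comparison of base composition or motifs over the set was made.

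MMP8, the collagenase of neutrophils, showed the largest genotype difference of all 136 genes. It had 40, 54 and 52 counts in KO cells with paclitaxel, against 3, 5 and 1 counts in WT cells with paclitaxel, and 1 count in all 6 DMSO libraries. The WT libraries were thus close to the DMSO level, and the log2 fold change of KO over WT was 3.90 ± 0.40 (SE, n = 3 each, edgeR adjusted p = 3.74e-08). ENSG00000225678, an annotated pseudogene 24.02 kb away, is named for its place beside MMP8 after its values were seen. It had 34, 33 and 43 counts in KO cells with paclitaxel, against 5, 2 and 1 counts in WT cells with paclitaxel, with a log2 fold change of 3.65 ± 0.44 (SE, edgeR adjusted p = 3.55e-07). The pair lies in the matrix metalloproteinase cluster of chromosome 11.

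FGF21, a secreted hormone that many tissues release under metabolic and protein-synthesis stress, had 57, 40 and 59 counts in KO cells with paclitaxel, against 8, 5 and 3 counts in WT cells with paclitaxel. It had 2, 0 and 0 counts in KO cells with DMSO, against 1, 0 and 0 counts in WT cells with DMSO. The KO libraries were all above the WT libraries, with a log2 fold change of 3.19 ± 0.35 (SE, n = 3 each, edgeR adjusted p = 1.11e-07). FGF9, a growth factor of mesenchyme and gonad, had 19, 37 and 41 counts in KO cells and 34, 32 and 36 counts in WT cells with paclitaxel, and its log2 fold change of -0.15 ± 0.26 did not pass (SE, edgeR adjusted p = 0.674). FGF21 was also the 1 gene of the 136 on the list of integrated stress response genes. Of the 23 others tested on that list, 13 were higher and 7 lower with paclitaxel in KO cells, and 6 were higher and 12 lower in WT cells. Over all genes tested, 33% were higher and 32.2% lower in KO cells, and 34.6% and 32.1% in WT cells. Whether the list differed from these shares was not tested.

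The promoter windows of MMP8 and FGF21 are shown because these were the genes with a symbol that had the highest log2 fold changes of KO over WT. MMP8 is at chr11:102724905-102725204 on the minus strand and FGF21 at chr19:48755274-48755573 on the plus strand (GRCh38.p14), with capitals for the same 8 motifs.
MMP8: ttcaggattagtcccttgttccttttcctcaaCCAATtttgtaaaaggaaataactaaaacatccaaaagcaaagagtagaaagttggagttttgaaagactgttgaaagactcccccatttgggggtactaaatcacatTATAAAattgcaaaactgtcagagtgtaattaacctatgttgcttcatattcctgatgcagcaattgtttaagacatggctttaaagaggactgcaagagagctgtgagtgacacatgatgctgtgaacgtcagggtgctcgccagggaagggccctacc
FGF21: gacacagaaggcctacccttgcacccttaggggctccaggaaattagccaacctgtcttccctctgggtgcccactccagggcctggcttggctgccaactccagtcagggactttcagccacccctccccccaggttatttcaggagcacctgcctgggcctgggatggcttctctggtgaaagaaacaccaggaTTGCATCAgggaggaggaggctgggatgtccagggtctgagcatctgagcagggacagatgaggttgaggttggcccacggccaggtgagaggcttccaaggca
The MMP8 window held a CCAAT box and a TATA box, and the FGF21 window held the C/EBP-ATF element. FUT1 lies 169 bases from FGF21 by annotation, so the FGF21 window reaches into its span. Under paclitaxel FUT1 was also higher in KO (log2 fold change 1.51, edgeR adjusted p = 6.38e-10). In DMSO it did not pass (-0.35, edgeR adjusted p = 0.174). BCAT2, on the other side, was lower in KO under paclitaxel (-0.17, edgeR adjusted p = 0.00429). The part of FUT1 in the FGF21 counts was not tested.

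Other secreted signals among the 136 genes did not pass the genotype test. TNFSF11, the RANK ligand that drives the formation of bone-resorbing osteoclasts, had 24, 22 and 23 counts in KO cells with paclitaxel, against 17, 10 and 27 counts in WT cells with paclitaxel, and 0 counts in all 6 DMSO libraries. Its groups overlapped, and its log2 fold change was 0.30 ± 0.33 (SE, edgeR adjusted p = 0.492). IL13, a type 2 cytokine, had 11, 15 and 32 counts in KO cells and 11, 16 and 25 counts in WT cells with paclitaxel. TAC3, the precursor of neurokinin B, had 14, 18 and 16 counts in KO cells and 16, 19 and 19 counts in WT cells with paclitaxel. Both had log2 fold changes within 1 standard error of 0.

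CEACAM20, an adhesion molecule of the carcinoembryonic antigen family, had the highest paclitaxel sum of the 136 genes. It had 125, 135 and 190 counts in KO cells with paclitaxel, against 93, 78 and 117 counts in WT cells with paclitaxel, and 4 counts in all 6 DMSO libraries. The genotypes did not overlap, with a log2 fold change of 0.57 ± 0.14 (SE, n = 3 each, edgeR adjusted p = 0.002). CEACAM16, a secreted relative found in the tectorial membrane of the inner ear, lies 169 kb away on chromosome 19 and had 23, 28 and 24 counts in KO cells, against 4, 17 and 13 counts in WT cells with paclitaxel. Its log2 fold change was 1.07 ± 0.38 (SE, edgeR adjusted p = 0.0237), and the call was lost without the second KO library, without the first or the third WT library and with DESeq2.

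Further surface and matrix genes were higher in KO. MUC13, a transmembrane mucin of epithelia, had 65, 60 and 85 counts in KO cells, against 32, 44 and 47 counts in WT cells with paclitaxel, with a log2 fold change of 0.70 ± 0.19 (SE, edgeR adjusted p = 0.00467). PCDH19, a protocadherin of neurons, had 30, 41 and 58 counts in KO cells, against 13, 19 and 28 counts in WT cells, with a log2 fold change of 1.03 ± 0.28 (SE, edgeR adjusted p = 0.0042). COL26A1, a collagen gene, had 15, 32 and 56 counts in KO cells, against 10, 9 and 17 counts in WT cells, so that its groups overlapped while edgeR called it higher in KO (log2 fold change 1.42 ± 0.38, SE, adjusted p = 0.00372). The adhesion G protein-coupled receptor ADGRG7 was higher in KO (log2 fold change 1.15 ± 0.30, SE), while the receptors ADGRF4 and GPR50 did not pass, with log2 fold changes of -0.10 ± 0.24 and 0.63 ± 0.31 (SE). SLC4A1, the anion exchanger of red blood cells, had 24, 25 and 42 counts in KO cells and 28, 18 and 29 counts in WT cells and did not pass.

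Among intracellular proteins, CALB1, a calcium-binding protein of neurons and kidney tubules, had 109, 100 and 194 counts in KO cells with paclitaxel, against 31, 35 and 31 counts in WT cells with paclitaxel. Its log2 fold change was 1.97 ± 0.20 (SE, n = 3 each, edgeR adjusted p = 4.69e-08), and the third KO library was far above the other two. RFTN2, a raftlin of lipid rafts, had 96, 118 and 146 counts in KO cells, against 66, 70 and 69 counts in WT cells, with a log2 fold change of 0.74 ± 0.15 (SE, edgeR adjusted p = 0.000318). FBP2, the fructose bisphosphatase of muscle, had 23, 38 and 77 counts in KO cells, against 13, 18 and 21 counts in WT cells (log2 fold change 1.31 ± 0.33, SE). NSG2, a vesicle protein of neurons, and TMEM255A, a membrane protein, were also higher in KO, with log2 fold changes of 0.97 ± 0.23 and 1.52 ± 0.38 (SE). GIMAP8, a GTPase of lymphocytes, was called higher at 0.75 ± 0.27 (SE, edgeR adjusted p = 0.0239), a call that was lost under 6 of the alternatives, with adjusted p-values up to 0.111.

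Transcription factors and chromatin genes were few. EGR4, a zinc finger factor of the immediate early class, had 52, 55 and 66 counts in KO cells, against 41, 33 and 35 counts in WT cells with paclitaxel, and 0 counts in KO cells with DMSO, against 3 counts in WT cells with DMSO. Its log2 fold change was 0.59 ± 0.21 (SE, edgeR adjusted p = 0.0207), and 5 alternatives gave adjusted p-values between 0.0502 and 0.0834. The nuclear receptors NR5A1, a regulator of steroid-producing tissues, and ESRRB, an orphan relative of the oestrogen receptors, did not pass, with log2 fold changes of -0.62 ± 0.27 and 0.09 ± 0.36 (SE). Of the 29 other tested genes of that list, 21 were higher and 4 lower with paclitaxel in KO cells. In WT cells 20 were higher and 3 lower. The shares over all genes tested were 33% higher and 32.2% lower in KO cells, and 34.6% and 32.1% in WT cells. The histone gene H4C14 had 21, 21 and 20 counts in KO cells and 13, 21 and 14 counts in WT cells, and it is uncertain because histone H4 genes are near-identical copies.

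Several further genes are known from muscle, germ cells or nerve and did not pass. The counts of TNNT2, the cardiac troponin T, were 25, 23 and 33 in KO cells and 21, 14 and 15 in WT cells with paclitaxel (log2 fold change 0.62 ± 0.31, SE, edgeR adjusted p = 0.102). TDRD5, a germ cell protein that silences transposons, had 20, 25 and 14 counts in KO cells and 19, 30 and 20 counts in WT cells. GARIN1B, a protein of sperm, had 23, 34 and 52 counts in KO cells and 52, 38 and 49 counts in WT cells. XG, which carries a blood group antigen, had 32, 45 and 40 counts in KO cells and 36, 40 and 47 counts in WT cells. The groups of these last 3 genes overlapped. TMEM59L, a membrane protein, had 32, 46 and 47 counts in KO cells and 47, 49 and 61 counts in WT cells (log2 fold change -0.39 ± 0.21, SE, edgeR adjusted p = 0.121).

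CYP2C19 and CYP2C18, liver oxidases of the cytochrome P450 family from a gene cluster on chromosome 10, were lower in KO. CYP2C19 had 13, 12 and 21 counts in KO cells with paclitaxel, against 32, 38 and 36 counts in WT cells with paclitaxel, and 2 counts in all 6 DMSO libraries. CYP2C18 had 10, 12 and 10 counts in KO cells with paclitaxel, against 24, 19 and 30 counts in WT cells with paclitaxel. The groups of both genes did not overlap, with log2 fold changes of -1.27 ± 0.29 for CYP2C19 (SE, edgeR adjusted p = 0.000772) and -1.24 ± 0.34 for CYP2C18 (SE, edgeR adjusted p = 0.00418). Both are uncertain as single genes, because an annotated gene that spans them, not analysed here, shares 49.5% and 38.5% of their exon bases.

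CYP2C8 of the same cluster, the main liver enzyme that hydroxylates paclitaxel, had 35 counts in KO cells and 30 in WT cells summed over the paclitaxel libraries, so it missed the rule, and 4 counts in KO cells and 3 in WT cells with DMSO. The promoter window of CYP2C19 (chr10:94762431-94762730, plus strand, GRCh38.p14) is shown as that of the lower gene of the cluster that had an entry, with capitals for the same motifs.
CYP2C19: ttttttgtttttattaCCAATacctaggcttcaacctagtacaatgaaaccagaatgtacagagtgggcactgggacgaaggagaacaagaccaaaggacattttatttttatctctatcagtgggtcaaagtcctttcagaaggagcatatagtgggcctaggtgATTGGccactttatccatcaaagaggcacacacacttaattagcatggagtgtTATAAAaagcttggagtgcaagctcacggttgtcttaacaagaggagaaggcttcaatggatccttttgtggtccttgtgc
It held a TATA box along the gene and 1 CCAAT box on each strand.

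Of the 9 genes lower in KO, IGFL2-AS1, a long noncoding RNA named for its place antisense to IGFL2, stood furthest apart. It had 4, 3 and 4 counts in KO cells with paclitaxel, against 31, 30 and 32 counts in WT cells with paclitaxel, and 1 count in KO cells with DMSO, against 2 counts in WT cells with DMSO. The KO libraries were thus near the DMSO level, and the log2 fold change of KO over WT was -3.11 ± 0.39 (SE, n = 3 each, edgeR adjusted p = 7.04e-07). It was the 1 gene of the 136 with fewer than 20 paclitaxel counts in KO cells, while MMP8, FGF21 and ENSG00000225678 were the 3 with fewer than 20 in WT cells. SOAT2, the enzyme that esterifies cholesterol in liver and intestine, had 15, 12 and 16 counts in KO cells, against 36, 39 and 37 counts in WT cells with paclitaxel, with a log2 fold change of -1.44 ± 0.28 (SE, edgeR adjusted p = 0.000182).

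The other lower genes had smaller differences. SCN4A, the sodium channel of skeletal muscle, had 7, 16 and 23 counts in KO cells, against 21, 27 and 42 counts in WT cells with paclitaxel, with a log2 fold change of -1.03 ± 0.34 (SE, edgeR adjusted p = 0.0162). F11, which encodes coagulation factor XI, had 23, 23 and 44 counts in KO cells, against 44, 48 and 53 counts in WT cells, with a log2 fold change of -0.76 ± 0.24 (SE, edgeR adjusted p = 0.0101). TEX35, a gene known from testis, and BOLA1, a mitochondrial protein, were lower in KO, with log2 fold changes of -1.05 ± 0.36 and -0.89 ± 0.33 (SE). The calls of these 4 genes were each lost under at least 1 alternative, and those of BOLA1 and TEX35 also with DESeq2 (adjusted p = 0.0977 and 0.0537).

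**Figure D3:**
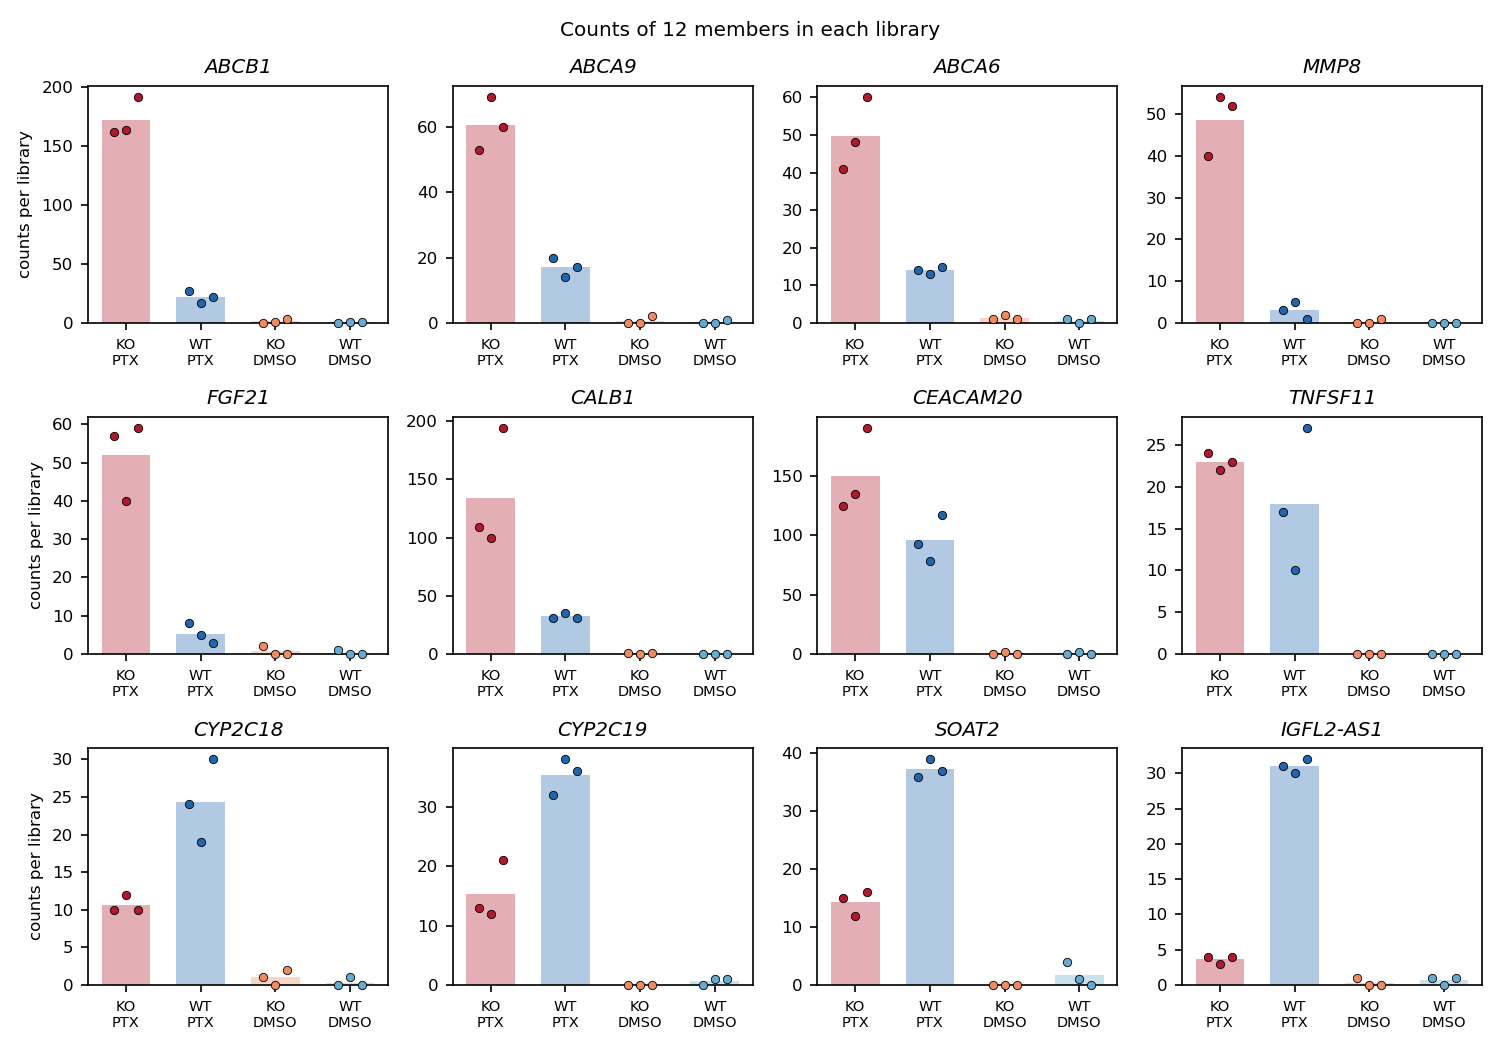
Counts of 12 of the genes in each library, with points for libraries and bars for the mean of 3, in GLI2 KO (KO) and WT cells with paclitaxel (PTX) and with DMSO, each panel on its own axis starting at 0. ABCB1, ABCA9, ABCA6, MMP8, FGF21 and CALB1 are higher in KO with paclitaxel, CYP2C18, CYP2C19, SOAT2 and IGFL2-AS1 are lower, and all DMSO libraries hold at most 4 counts.

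Among the long noncoding RNAs, CCDC13-AS2 had the most counts, with 126, 140 and 153 in KO cells, against 19, 41 and 55 in WT cells with paclitaxel. Its log2 fold change was 1.80 ± 0.21 (SE, n = 3 each, edgeR adjusted p = 3.25e-07), and 5.46% of its exon bases lie in exons of another gene. LINC01447 had 95, 96 and 133 counts in KO cells, against 36, 38 and 42 counts in WT cells, with a log2 fold change of 1.41 ± 0.17 (SE, edgeR adjusted p = 4.82e-07). LINC01882 was the other of the 11 LINC genes that was higher in KO (0.81 ± 0.22, SE), and 0 of the 11 were lower. LNCEGFL7OS, with 40, 49 and 75 counts in KO cells and 43, 60 and 52 counts in WT cells, had a log2 fold change of 0.00 ± 0.21 (SE).

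Some of the genes lay close together. Of the 118 with a position, 34 lay within 1 Mb of another, forming 23 pairs. The densest stretch was on chromosome 5, where LINC02995, LINC01484, C5orf47 and NSG2 followed each other. Their log2 fold changes of KO over WT were 0.71 ± 0.40, 0.50 ± 0.35, 0.38 ± 0.33 and 0.97 ± 0.23 (SE), of which only that of NSG2 passed. On chromosome 13, LINC02341 lies 76.8 kb from TNFSF11, and neither passed.

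Genes beside the 136 were examined to see whether the genotype difference stopped at the gene. Among the nearest tested neighbours of the 46 genes higher in KO, 28 of 59 (47.5%) were themselves higher in KO under paclitaxel and 9 were lower, beside a background of 25.2% higher. Among neighbours of the 9 lower genes, 0 of 13 were higher and 4 were lower, and among neighbours of the 81 genes that did not pass, 34 of 124 (27.4%) were higher. In DMSO, where the 136 genes themselves are almost absent, 22 of the 59 neighbours of the higher genes (37.3%) were higher in KO and 7 were lower, beside backgrounds of 22% and 19.6%. With paclitaxel against DMSO, 82 of 197 neighbours of all 136 genes (41.6%) were higher in KO cells, beside a background of 33%, and 85 of 197 (43.1%) were higher in WT cells, beside a background of 34.6%. Several neighbours are shared between genes of the set, so these counts are a description.

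At ABCB1 the neighbour RUNDC3B, a gene on the opposite strand whose span overlaps that of ABCB1 without shared exon bases, was already higher in KO in DMSO. It stood at 3.54, 3.70 and 3.63 CPM in KO cells with paclitaxel, against 0.463, 0.532 and 0.592 CPM in WT cells with paclitaxel, and at 2.82, 2.93 and 3.34 CPM in KO cells with DMSO, against 0.270, 0.183 and 0.339 CPM in WT cells with DMSO. The log2 fold changes of KO over WT were 2.77 ± 0.12 with paclitaxel and 3.50 ± 0.16 with DMSO (SE, edgeR adjusted p = 5.45e-14 and 2.85e-15). The part of RUNDC3B in the ABCB1 counts was not tested. ABCB4, the phospholipid exporter on the other side, had log2 fold changes of 0.98 ± 0.33 with paclitaxel (SE, edgeR adjusted p = 0.018) and 0.68 ± 0.52 with DMSO (SE, edgeR adjusted p = 0.325). DBF4, an activator of a replication kinase further out, had -0.01 ± 0.03 with paclitaxel (SE, edgeR adjusted p = 0.818).

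At MMP8 the proteases MMP1, MMP3, MMP10 and MMP13 of the same cluster were higher in KO under both treatments. MMP1, the interstitial collagenase, stood at 3.94, 3.57 and 3.06 CPM in KO cells with paclitaxel, against 0.734, 0.743 and 0.444 CPM in WT cells with paclitaxel, and at 0.641, 1.11 and 0.766 CPM in KO cells with DMSO, against 0.126, 0.0977 and 0.0565 CPM in WT cells with DMSO. Its log2 fold changes of KO over WT were 2.47 ± 0.15 with paclitaxel and 3.14 ± 0.32 with DMSO (SE, edgeR adjusted p = 3.78e-11 and 2.63e-08). MMP8 had no more than 1 count in any DMSO library of either genotype, but few DMSO counts are what the rule asks for. Summed over the WT libraries with DMSO, MMP10 and MMP3 also had only 4 and 5 counts, and MMP1 and MMP13 had 26 each.

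At ABCA9 and ABCA6 the next genes of the same cluster, ABCA10 and ABCA5, were higher in KO under both treatments. ABCA10 stood at 6.31, 7.48 and 7.18 CPM in KO cells with paclitaxel, against 1.63, 1.64 and 1.41 CPM in WT cells with paclitaxel, and at 1.38, 1.68 and 1.66 CPM in KO cells with DMSO, against 0.647, 0.989 and 0.802 CPM in WT cells with DMSO. Its log2 fold changes of KO over WT were 2.17 ± 0.09 with paclitaxel and 0.97 ± 0.15 with DMSO (SE, edgeR adjusted p = 4.01e-14 and 5.52e-06). ABCA5 had 1.24 ± 0.07 with paclitaxel and 1.27 ± 0.06 with DMSO (SE), and it was lower with paclitaxel than with DMSO in both genotypes. Of these 4 ABCA genes, ABCA9 and ABCA6 were near 0 in DMSO, as the rule sets, while ABCA10 was higher with paclitaxel and ABCA5 lower.

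**Figure D4:**
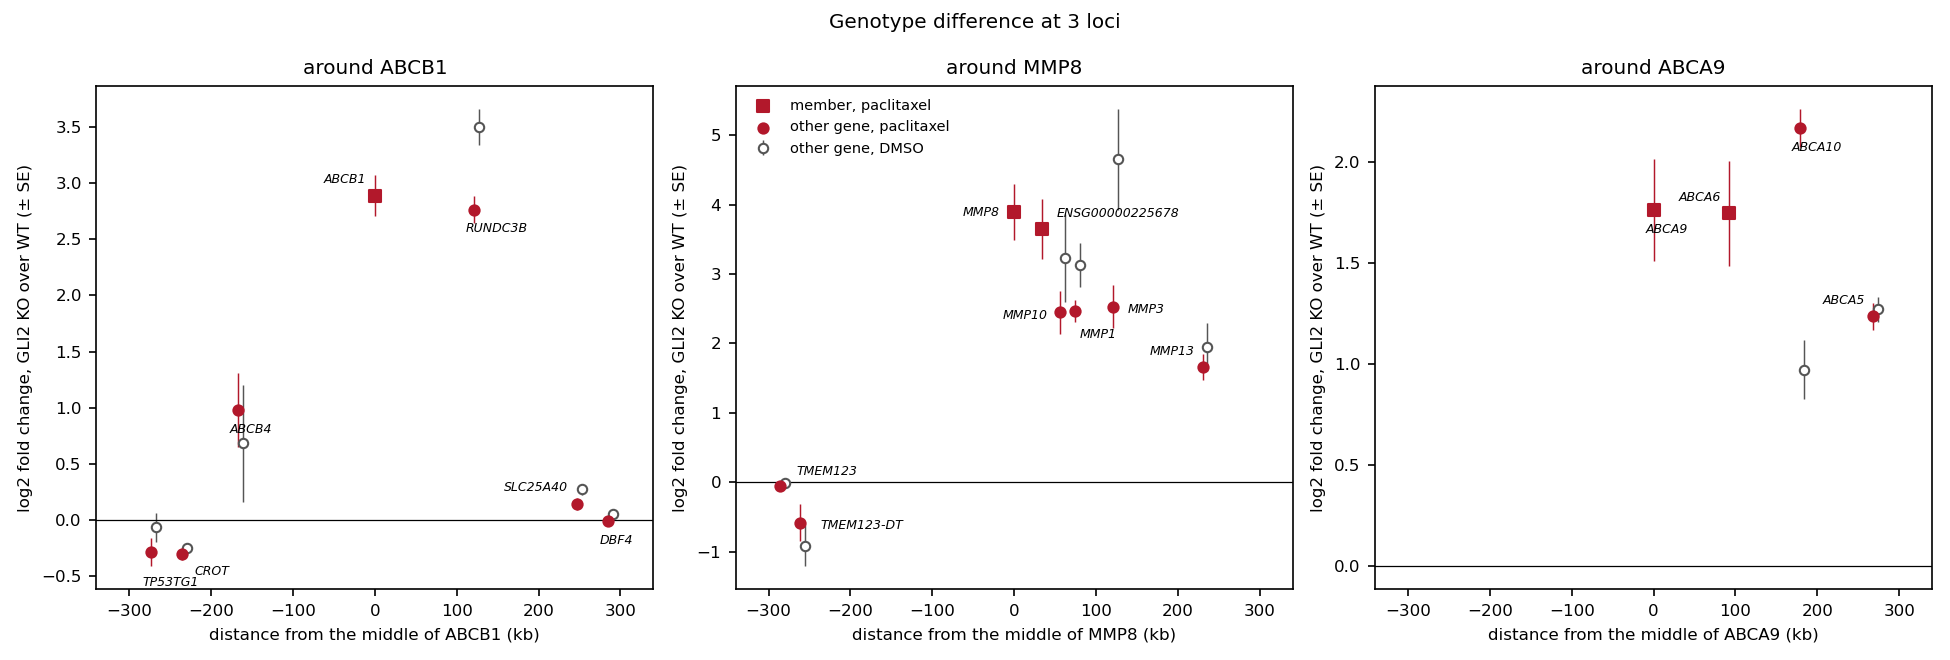
Log2 fold change of GLI2 KO over WT with its standard error at the genes around ABCB1, MMP8 and ABCA9 (vertical axes) against the distance of each gene's middle in kb (horizontal axes), with squares for genes of the set and filled circles for other genes under paclitaxel, and open circles for other genes in DMSO, drawn slightly to the right. RUNDC3B, MMP1 and ABCA10 are above 0 under both treatments.

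Markers of other cell types were measured beside the set. The counted rows are human genes, so these markers are not a measure of mouse cells carried over from bone. Whether RNA of such mouse cells was present was not tested. The 5 haematopoietic markers in the table summed to between 2.92 and 3.65 CPM in KO cells with paclitaxel, against 2.33 to 2.67 CPM in WT cells with paclitaxel, and to between 1.05 and 1.49 CPM in KO cells with DMSO, against 0.768 to 0.879 CPM in WT cells with DMSO. CD3E was not analysed here, and 0 of the 5 markers were at 0 over a group. All 5 were higher with paclitaxel than with DMSO in KO cells, beside 33% of all genes tested. Between the genotypes under paclitaxel the 5 markers differed in direction. PTPRC, the pan-leukocyte surface phosphatase, was higher in KO (log2 fold change 2.47 ± 0.29, SE, edgeR adjusted p = 2.18e-07), as was CSF1R (0.70 ± 0.20, SE, edgeR adjusted p = 0.00472), and CD14 was lower (-0.40 ± 0.16, SE, edgeR adjusted p = 0.0423). ITGAM and SPI1 did not pass, with log2 fold changes of 0.32 ± 0.19 and -0.41 ± 0.32 (SE). The 4 stromal markers in the table, among which RUNX2 had most of the counts, summed to between 67.1 and 69.2 CPM in KO cells with paclitaxel, against 60.9 to 62.3 CPM in WT cells with paclitaxel, and DCN, LUM and SP7 were not analysed here. These markers also differed in direction under paclitaxel. RUNX2 was lower in KO (log2 fold change -0.10 ± 0.03, SE, edgeR adjusted p = 0.0194). PDGFRB (1.21 ± 0.06, SE, edgeR adjusted p = 2.42e-13) and PDGFRA (2.44 ± 0.27, SE, edgeR adjusted p = 1.46e-07) were higher, and BGLAP was not tested. The 5 endothelial markers summed to between 2.92 and 3.23 CPM in KO cells with paclitaxel, against 4.19 to 4.53 CPM in WT cells with paclitaxel. They too differed in direction. KDR was lower in KO under paclitaxel (log2 fold change -1.69 ± 0.13, SE, edgeR adjusted p = 6.17e-10). PECAM1 (0.62 ± 0.17, SE, edgeR adjusted p = 0.00403) and TEK (0.72 ± 0.26, SE, edgeR adjusted p = 0.0245) were higher. VWF did not pass (0.20 ± 0.18, SE), and CDH5 was not tested. Of the kidney and packaging cell markers PAX8 was analysed here, at 2.23 to 2.43 CPM in KO cells with paclitaxel, against 4.13 to 4.98 CPM in WT cells with paclitaxel. The 4 markers of the line itself, VIM, CD44, KRT18 and EPCAM, summed to between 2284 and 2522 CPM in KO cells with paclitaxel, against 2773 to 2795 CPM in WT cells with paclitaxel. The part of other cells in the levels of the 136 genes was not tested.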

How the data were processed

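RNA was counted in 12 libraries, 3 per group, with groups from the titles of the samples. The deposited table of raw counts gives whole-number counts per gene for 25049 rows, with a lowest row total of 20. In the deposited normalized table, the signal equals the count over a constant for each library (largest relative deviation 5.33e-15), and it was not used further. DESeq2 1.36.0, STAR, Trim Galore 0.6.7 and hg38 are named, without roles, in the submitters' processing notes. For the counting tool, annotation and strand setting, the sources used here give nothing. The number of columns not used was 0.

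The main test was edgeR 4.0.16 (glmQLFit, robust, and glmQLFTest) on the 6 paclitaxel libraries with TMM factors and filterByExpr at a minimum count of 10, which kept 21442 rows (85.6%). P-values were two-sided and adjusted by Benjamini-Hochberg over these rows, with calls below 0.05. KO against WT under paclitaxel came from this fit for neighbours and listed genes too. Paclitaxel against DMSO, KO against WT in DMSO and the difference between KO effects used the same test on all 12 libraries (21974 rows). Standard errors were obtained by dividing the size of a log2 fold change by the root of its F statistic. Sums of CPM over the set were not tested, and with 3 libraries against 3 the smallest exact permutation p is 0.1. Simulated counts with known 2-fold changes under paclitaxel were recovered for 44 of 50 raised and 43 of 50 lowered genes, with 5 false calls among 21493 genes.

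The set, the families and the lists were chosen with earlier results of these data known. Members were named as the 10 largest rises and 10 largest falls among called genes with a symbol and groups that did not overlap, the 15 with a symbol and the most counts, up to 4 per list and those nearest to each limit. Not every gene that this rule or the marker lists hold is reported here. Positions come from GENCODE 29 on GRCh38 and matched 118 of the 136 genes. Alternatives were RLE, upper-quartile and no factors, other filters, a fit on all 12 libraries, DESeq2 1.42.0 and leaving out each paclitaxel library.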

Additional observations from a re-analysis of the deposited data

Results flagged for a closer look

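Other genes around ABCB1, MMP8 and ABCA9 were checked for a genotype effect that differs between treatments. The edgeR test of the difference itself (the KO effect with paclitaxel minus the KO effect with DMSO, on all 12 libraries) passed for 3 of 29. For ABCA10, beside ABCA9 and ABCA6, the log2 difference was 1.20 ± 0.19 (SE, adjusted p = 0.00016), and the KO libraries were above the WT libraries in 3 of 3 under both treatments. For RUNDC3B, which overlaps ABCB1, the log2 difference was -0.74 ± 0.23 (SE, adjusted p = 0.0377), so the KO effect was larger with DMSO, and here too the KO libraries were above the WT libraries in 3 of 3 under both treatments. For TMEM243, which lies beyond ABCB4 from ABCB1, the log2 difference was -0.30 ± 0.08 (SE, adjusted p = 0.0113). Its KO libraries were all above its WT libraries with DMSO (log2 fold change 0.35 ± 0.05, SE), and the genotypes overlapped with paclitaxel. Among those of the 136 genes that lie at these loci, ABCB1 had a log2 difference of 1.92 ± 1.46 (SE, adjusted p = 0.442) and MMP8 1.94 ± 5.53 (SE, adjusted p = 0.870). ABCA9, ABCA6 and ENSG00000225678 did not pass either, with adjusted p-values of 0.868, 0.802 and 0.859. The wide standard errors go with DMSO counts of at most 6, which the rule sets.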

How the results depend on the processing

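The number of genes depends on the limits: 10 rows met the rule at 0 DMSO counts, 282 at 12, 447 at 50 paclitaxel counts and 37 at 200, and 105 met it on counts divided by size factors. The number higher in KO was 45 to 46 with RLE, upper-quartile or no factors or without a filter, 41 with all 12 libraries in the fit, 39 with DESeq2 and between 39 and 47 when a paclitaxel library was left out. The number lower in KO was 9, 8 and 7 under the same alternatives and between 6 and 13 when a library was left out: 6 without the first or the second KO library and 13 without the third, where 40 were higher. A minimum count of 50 left 13 of the 136 genes in the test, of which 12 were higher and 0 lower. The mean summed level in WT cells with paclitaxel moved to 38.1 CPM without factors, to 34.8 without the gene with the most counts and to 34.8 without the 4 genes that share over 20% of their exon bases. Of the 54 genes that the naming rule took, 31 were called and 0 of these changed sign under these alternatives. A sign change was seen in 9 that were not called, and 0 of them were called with the other sign (smallest adjusted p = 0.503). The log2 fold change of LNCEGFL7OS was -0.032 with upper-quartile factors, -0.0020 without factors, -0.00068 with all 12 libraries and -0.00063 with DESeq2. When a library was left out it ran between -0.19 and 0.15 for LNCEGFL7OS, -0.11 and 0.22 for ENSG00000287538, -0.21 and 0.027 for ADGRF4, -0.14 and 0.19 for LINC01608, -0.30 and 0.078 for FGF9, -0.50 and 0.10 for LINC00930, -0.72 and 0.068 for FAM167A-AS1, -0.38 and 0.36 for IL13, and -0.13 and 0.46 for ESRRB. With DESeq2 5 of the 54 genes lost their call. With a median standard error of 0.31 on the log2 scale, differences well under 2-fold could not be told from the spread between libraries for most of the genes. No paired analysis was made because the labels carry no replicate numbers. The titles do carry library numbers, 1 to 6 for the WT libraries and 7 to 12 for the KO libraries. Genotype therefore cannot be told apart from the order of these numbers.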
